A study of Mus musculus with 9 samples.

Results

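Tmem176a and Tmem176b are neighbouring paralogs on mouse chromosome 6, and their RNA was followed in C2C12 cells in which either of 2 cryptochrome genes had been knocked down. The pair was taken as the rows whose Ensembl identifiers carry these symbols, which gave 2 of the 47728 genes in the count files, of which 23515 had a count in some library. C2C12 is an established mouse myoblast line that fuses into myotubes when serum is reduced. The groups were Cry1 knockdown, Cry2 knockdown and control cultures, sampled on days 0, 3 and 5 of differentiation; every genotype and day has a single library, which makes 9. All 3 genotypes were grown in DMEM with 10% fetal bovine serum and, from day 0, differentiated in DMEM with 5% horse serum and 1% insulin, transferrin and selenium. The labels do not state how the knockdowns were made or whether they were clones. The 3 libraries of a genotype are therefore its days and not replicate cultures, and a culture difference shared by them cannot be told apart from the knockdown. RNA per culture was measured, so fewer cells expressing a gene and less RNA per cell cannot be told apart either.

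Both genes encode small proteins that cross the membrane several times and are distant relatives of the MS4A family, whose best-known member is the B cell antigen CD20. In mice they are best known from dendritic cells, macrophages and Th17-type lymphocytes, where they lie in endosomal membranes and act on ion flux and antigen handling, and TMEM176B restrains the inflammasome. Cry1 and Cry2 encode cryptochromes, which repress the circadian activators CLOCK and BMAL1 at E-box sequences. The title of the study names Tmem176b, with cyclin D1, as an mRNA stabilised through Bclaf1 in a process that needs Cry2.

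The genes stand head to head. In GENCODE vM21 on mm10, Tmem176a (ENSMUSG00000023367) lies on chromosome 6 from 48840919 to 48847071 on the plus strand and Tmem176b (ENSMUSG00000029810) from 48833818 to 48841496 on the minus strand. In this annotation their spans overlap by 578 bases, 81 of them exonic in both genes, and 0 other genes overlap either span. In RefSeq (GRCm38.p6) Tmem176b runs from 48833811 to 48845948 and so contains Tmem176a, at 48841483 to 48845364. The exon overlap in RefSeq was not measured, and the annotation behind the counts is not known. The shared exon bases are 2.13% of the 3810 merged exon bases of Tmem176a and 3.42% of the 2371 of Tmem176b. The library kit does not keep the strand, so reads from these 81 bases could not be assigned to either gene by orientation. Over the whole transcripts, on both strands and with the overlap included, 13 of their 50-base words are shared. These are 0.333% of the words of Tmem176a and 0.476% of those of Tmem176b. With 0 words of either gene in other genes, the pair is readily separated by sequence. The coding sequences, 732 bases in Tmem176a and 789 in Tmem176b, are identical at 58.9% of 713 aligned bases.

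The stretch between the genes is printed because a single short window holds a start of each. RefSeq (GRCm38.p6) places a start of Tmem176b at 48841374, reading left, and a start of Tmem176a at 48841483, reading right, 109 bases apart. The window chr6:48841233-48841532, plus strand, runs from 250 bases before to 50 bases after that start of Tmem176a, with each match to the E-box CANNTG in capitals.
Tmem176a and Tmem176b shared start window: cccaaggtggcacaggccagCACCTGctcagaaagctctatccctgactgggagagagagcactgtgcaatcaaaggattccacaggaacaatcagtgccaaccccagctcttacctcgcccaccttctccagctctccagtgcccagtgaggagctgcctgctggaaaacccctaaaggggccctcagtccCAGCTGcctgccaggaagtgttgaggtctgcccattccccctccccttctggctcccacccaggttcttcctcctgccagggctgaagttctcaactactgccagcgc
The second E-box, CAGCTG, lies between the starts, 58 bases before that of Tmem176a and 56 before that of Tmem176b. The clock form of the E-box CACGTG, the ROR half-site AGGTCA and the TATA box TATAAA were searched on both strands. They had 0 matches in the windows of the 5 RefSeq starts of the pair that were used. The RefSeq extent of Tmem176b reaches further right, to 48845948, and a start there was not searched. Of 32851 RefSeq windows of this length, 72.3% hold CANNTG, 7.15% CACGTG, 16.3% AGGTCA and 13.6% TATAAA. The matches describe the letters of the window only.

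Tmem176a was a low-abundance transcript that stood above the other cultures in the Cry1 knockdown at every day. It had 21, 35 and 21 counts at days 0, 3 and 5 in the Cry1 knockdown, 6, 2 and 1 in the Cry2 knockdown, and in the control 2, 5 and 2. As CPM, counts scaled to a common library size and composition, these were 3.11, 5.82 and 3.71 in the Cry1 knockdown, 0.969, 0.424 and 0.189 in the Cry2 knockdown, and in the control 0.293, 0.840 and 0.371. The lowest Cry1 knockdown library therefore held more Tmem176a than the highest library of either other genotype, while the Cry2 knockdown and the control overlapped. A floor of 3 counts stood at 0.440 to 0.635 CPM depending on the library. It is about the 95% limit of a count of 0, taken on the upper side only. The Cry2 knockdown at days 3 and 5 and the control at days 0 and 5 lay at or under that floor, so differences among them were not detectable at this depth.

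Tmem176b was the more abundant paralog and showed the same separation. It had 38, 65 and 34 counts in the Cry1 knockdown at days 0, 3 and 5, with 6, 9 and 2 in the Cry2 knockdown, and in the control 16, 9 and 6. In CPM these were 5.63, 10.8 and 6.01 in the Cry1 knockdown, 0.969, 1.91 and 0.378 in the Cry2 knockdown, and in the control 2.35, 1.51 and 1.11. All 3 Cry1 knockdown libraries again exceeded the rest, and the Cry2 knockdown and control ranges overlapped. The control was highest at day 0 and both knockdowns were highest at day 3. Even at its peak Tmem176b exceeded only 28.2% of the genes tested in that library, and Tmem176a only 18.3%.

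**Figure D1:**
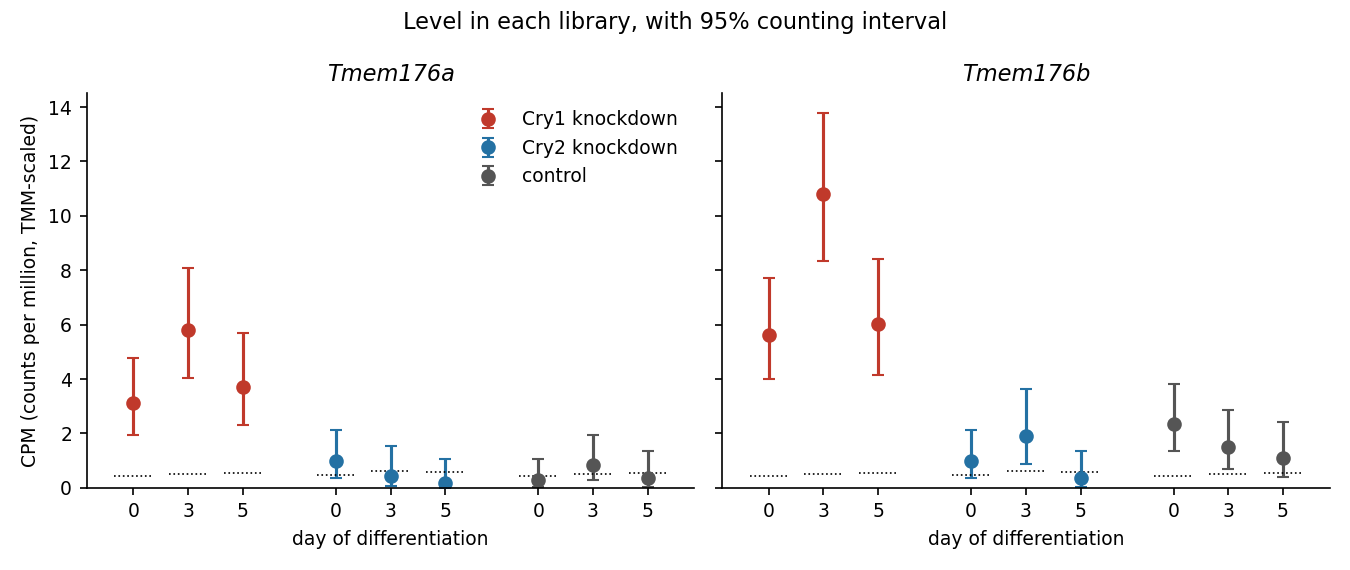
CPM of Tmem176a (left panel) and Tmem176b (right panel) in each of the 9 libraries, by genotype and day of differentiation, with the 95% Poisson interval of the count as bar and the level of 3 counts as dotted line. The 3 Cry1 knockdown libraries reach 3.11 to 5.82 CPM for Tmem176a and 5.63 to 10.8 CPM for Tmem176b and lie above all other libraries of the same gene.

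Ordered by CPM, the 3 Cry1 knockdown libraries held the first 3 places for both genes. For most neighbours in that order the separate 95% Poisson intervals overlapped, which is not a test of their difference. Tmem176a at day 0 is a case. Its intervals in the Cry1 and Cry2 knockdowns overlapped, yet the ratio of Cry2 to Cry1 knockdown was 0.311 (95% counting interval 0.103 to 0.798). The only step without overlap was in Tmem176b below the Cry1 knockdown at day 0 (5.63 CPM, 95% Poisson interval 3.99 to 7.73). That interval did not reach the one of the control at day 0 (2.35 CPM, 1.34 to 3.81). Intervals of this kind cover counting error only.

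Both paralogs rose in the Cry1 knockdown against the control. Summed over the 3 days, Tmem176a had 77 counts in the Cry1 knockdown and 9 in the control, and Tmem176b 137 in the Cry1 knockdown and 31 in the control. Tmem176a averaged 4.22 ± 1.42 CPM in the Cry1 knockdown and 0.501 ± 0.296 CPM in the control, and Tmem176b 7.49 ± 2.89 CPM in the Cry1 knockdown and 1.66 ± 0.63 CPM in the control (SD, n = 3 days each). The log2 fold change was 3.04 ± 0.48 for Tmem176a (SE, adjusted p = 0.0190) and 2.11 ± 0.37 for Tmem176b (adjusted p = 0.0244), by edgeR's quasi-likelihood test with day as a term and Benjamini-Hochberg adjustment over 12752 genes. In this comparison 0.894% of the genes tested rose, 114 in all, among which Tmem176a had the 7th and Tmem176b the 18th largest fold change. Of the genes tested, 22.2% were higher in the Cry1 knockdown at every day. Values of all 3 Cry1 knockdown days above all 3 control days, as in both paralogs, occurred in 3.13% of genes tested. Both paralogs passed the filter on low counts only through the Cry1 knockdown libraries, where they were high. Their p-values and ranks, and these shares, depend on that and are no separate support for the rise.

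The rise was present within each day, with a size that the low control counts leave wide. For Tmem176a the ratio of the Cry1 knockdown to the control was 10.6 at day 0 (95% counting interval 2.59 to 93.3), 6.93 at day 3 (2.71 to 22.7) and 10.0 at day 5 (2.45 to 88.1). For Tmem176b it was 2.40 at day 0 (1.31 to 4.61), 7.15 at day 3 (3.55 to 16.3) and 5.41 at day 5 (2.24 to 15.8). With a prior count of 5 the log2 ratios of Tmem176a at days 0, 3 and 5 were 1.91, 1.99 and 1.83, against 3.41, 2.79 and 3.33 as counted, and those of Tmem176b were 1.05, 2.31 and 1.76, against 1.26, 2.84 and 2.44. All 6 counting intervals stayed above 1, and within each gene those of the 3 days overlapped. The adjusted p of Tmem176a passed the threshold of 0.05 without the Cry1 knockdown at day 0 or any Cry2 knockdown library and missed it without the Cry1 knockdown at day 3 (0.126) or day 5 (0.0654) or the control at day 0 (0.0803), day 3 (0.0726) or day 5 (0.0757). For Tmem176b it missed the threshold without the Cry1 knockdown at day 3 (0.145) or day 5 (0.0923) or the control at day 3 (0.115) or day 5 (0.0932).

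In the Cry2 knockdown against the control neither paralog passed the test. Tmem176a had 9 counts over the 3 days in the Cry2 knockdown and 9 in the control, and Tmem176b 17 in the Cry2 knockdown and 31 in the control. Tmem176a averaged 0.527 ± 0.400 CPM in the Cry2 knockdown, against 0.501 ± 0.296 CPM in the control, and Tmem176b 1.09 ± 0.77 CPM in the Cry2 knockdown, against 1.66 ± 0.63 CPM in the control (SD, n = 3 days each). For each gene the difference of means lay within the spread between days. The log2 fold change was 0.19 ± 0.69 for Tmem176a (adjusted p = 0.943) and -0.69 ± 0.49 for Tmem176b (adjusted p = 0.621). By the same fit 0.0235% of genes tested were called in either direction, 3 in all, with 1577 genes at an unadjusted p under 0.05.

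These counts bound the Cry2 knockdown values only loosely. The ratio of summed Tmem176b levels, Cry2 knockdown over control, was 0.615 with a 95% counting interval of 0.319 to 1.15, and that of Tmem176a was 1.12 (0.394 to 3.19). The Tmem176b ratio was 0.413 at day 0 (0.132 to 1.11), 1.26 at day 3 (0.444 to 3.59) and 0.340 at day 5 (0.0336 to 1.90). At days 0 and 5 Tmem176b was thus lower in the Cry2 knockdown, and at day 3 higher, with a ratio of 1 inside every interval. For Tmem176a the ratio was 3.30 at day 0 (0.591 to 33.5), 0.504 at day 3 (0.0480 to 3.08) and 0.510 at day 5 (0.00865 to 9.80). Without the Cry2 knockdown at day 0, the fold change of Tmem176a turned to -0.87 (adjusted p = 0.671).

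Set against each other, the knockdowns differed in both paralogs. The log2 fold change of the Cry2 knockdown over the Cry1 knockdown was -2.84 ± 0.48 for Tmem176a (adjusted p = 0.0115) and -2.80 ± 0.40 for Tmem176b (adjusted p = 0.00598). Summed levels in the Cry2 knockdown were 0.133 times those in the Cry1 knockdown for Tmem176a (95% counting interval 0.0586 to 0.266) and 0.141 times for Tmem176b (0.0799 to 0.234). Here 3.65% of the genes tested were lower in the Cry2 knockdown, and 3.66% had all 3 Cry2 knockdown values below all 3 Cry1 knockdown values. Since the comparison shares its Cry1 knockdown libraries with the one against the control, it is no second observation of the rise there. Here too both genes entered the test only through the Cry1 knockdown libraries. The Tmem176b call held without any single library, while that of Tmem176a missed the threshold without the Cry1 knockdown at day 3 (adjusted p = 0.071) or day 5 (0.0539) or the Cry2 knockdown at day 3 (0.075) or day 5 (0.0516).

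**Figure D2:**
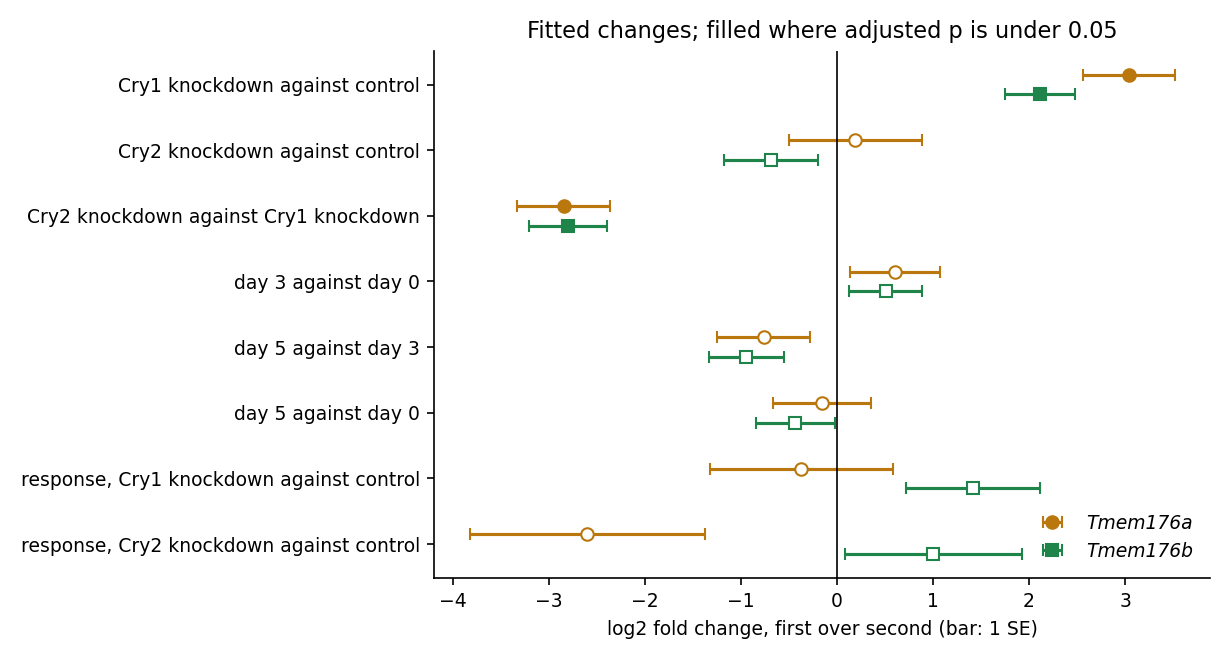
Log2 fold change (horizontal axis, bars 1 SE) of Tmem176a and Tmem176b in the 3 genotype comparisons, the 3 day comparisons and the 2 differentiation responses, first-named group over second, filled where the edgeR adjusted p is under 0.05. The Cry1 knockdown against the control (3.04 and 2.11) and the Cry2 knockdown against the Cry1 knockdown (-2.84 and -2.80) are the filled points.

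Neither gene passed a test of change with differentiation. At day 3 against day 0 the log2 fold change over the 3 genotypes was 0.61 ± 0.47 for Tmem176a (adjusted p = 0.309) and 0.51 ± 0.38 for Tmem176b (adjusted p = 0.292). At day 5 against day 3 it was -0.76 ± 0.48 for Tmem176a (adjusted p = 0.265) and -0.94 ± 0.40 for Tmem176b (adjusted p = 0.107). In CPM both paralogs were lower at day 5 than at day 3 in all 3 genotypes. At day 5 Tmem176a was at or under the floor in the Cry2 knockdown and the control, and Tmem176b in the Cry2 knockdown. How many of all genes fell in every genotype was not counted. At day 5 against day 0 the values were -0.15 ± 0.51 for Tmem176a (adjusted p = 0.814) and -0.43 ± 0.41 for Tmem176b (adjusted p = 0.394). The background was 51.8% of genes called at day 3 against day 0, 28.5% at day 5 against day 3 and 56.6% at day 5 against day 0. Without the Cry1 knockdown at day 0, the day 3 values were -0.05 for Tmem176a and -0.04 for Tmem176b. Without the Cry2 knockdown at day 0 or day 5, the day 5 against day 0 value of Tmem176a was 0.24 or 0.04.

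The response to differentiation, days 3 and 5 against day 0, was also compared between genotypes and passed for neither gene. In the Cry1 knockdown against the control it was -0.37 ± 0.95 for Tmem176a (adjusted p = 0.999) and 1.41 ± 0.70 for Tmem176b (adjusted p = 0.976). The Cry2 knockdown against the control gave -2.60 ± 1.22 for Tmem176a (adjusted p = 0.835) and 1.00 ± 0.92 for Tmem176b (adjusted p = 0.880). This edgeR fit of 13608 genes has 2 residual degrees of freedom and called 0% of genes in the Cry1 knockdown (0 genes, with 670 at an unadjusted p under 0.05) and 0.0367% in the Cry2 knockdown (5 genes).

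The proportion of the paralogs to each other was compared across genotypes. Tmem176a supplied 35.6%, 35% and 38.2% of the pair's counts at days 0, 3 and 5 in the Cry1 knockdown, 50%, 18.2% and 33.3% in the Cry2 knockdown, and in the control 11.1%, 35.7% and 25%. Over the 3 days its share was 36.0% in the Cry1 knockdown (77 of 214 counts, exact binomial 95% interval 29.6 to 42.8%), 34.6% in the Cry2 knockdown (9 of 26, 17.2 to 55.7%) and 22.5% in the control (9 of 40, 10.8 to 38.5%). The intervals overlapped, and the difference in proportion between genotypes was not tested. Per kilobase of merged exon, the mean level of Tmem176b was 3.16 CPM in the Cry1 knockdown, 0.457 in the Cry2 knockdown and 0.699 in the control. On the same scale Tmem176a had 1.11, 0.138 and 0.132 CPM in those groups. Tmem176b counts per exon base were 2.86 times those of Tmem176a in the Cry1 knockdown, 3.04 times in the Cry2 knockdown and 5.54 times in the control.

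**Figure D3:**
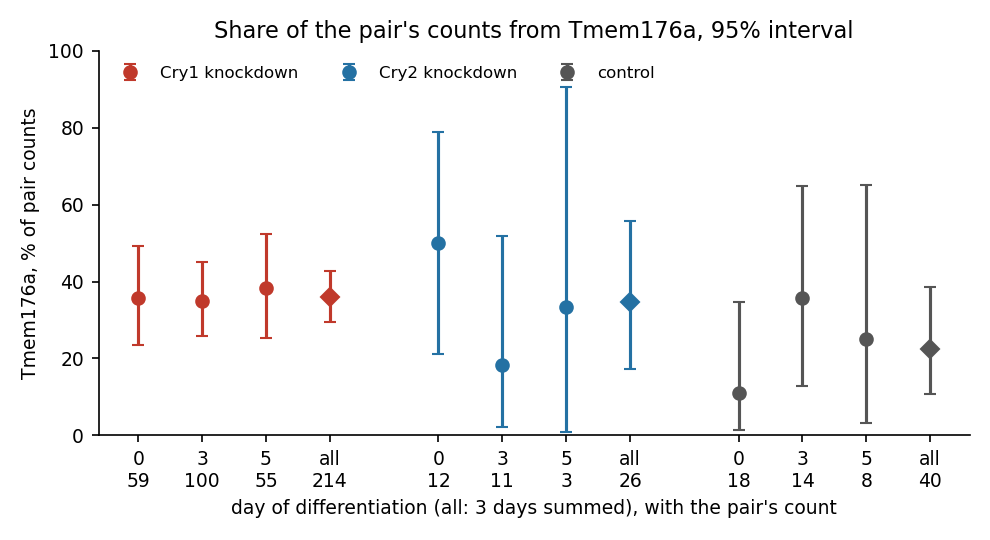
Share of the pair's counts that came from Tmem176a (vertical axis, percent) in each library and over the 3 days of a genotype (diamonds), with exact binomial 95% intervals and the pair's count under each point. The Cry1 knockdown shares lie between 35% and 38.2%, and the intervals of the other genotypes are wide because the pair has 26 counts in the Cry2 knockdown and 40 in the control.

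The genes next to the pair had no counts in these cells, while the wider neighbourhood was near the level of all genes. Of 58 other annotated genes within 500 kb, 24 (41.4%) had a count in some library and 12 (20.7%) passed the filter on low counts. Over all genes in the files these shares were 49.3% and 26.7%. None of the 15 within 100 kb had a count: these include Gimap1, Gimap3 and Gimap5, which encode immune GTPases, Aoc1, the diamine oxidase gene, and gene models. The nearest tested neighbours were Zfp775, a zinc finger gene 210.6 kb to the left, and Malsu1, a mitochondrial ribosome assembly gene 226.7 kb to the right. Of the 12 tested neighbours, 0 were called in the Cry1 knockdown against the control (background 2.59%), where they ran from -0.40 to 1.33 with a median log2 fold change of -0.08. The upper end was Igf2bp3, an RNA-binding protein gene, with 4.0, 3.66 and 4.07 CPM in the Cry1 knockdown and 3.08, 1.01 and 0.556 CPM in the control at days 0, 3 and 5 (1.33 ± 0.45, adjusted p = 0.155). The Cry2 knockdown against the control also had 0 of 12 called.

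In the Cry2 knockdown against the Cry1 knockdown, 0 of the 12 neighbours were lower and 2 were higher. Those were Atp6v0e2, a subunit gene of the vacuolar proton pump (1.17 ± 0.21, adjusted p = 0.0143), and the pseudogene Zfp862-ps (0.41 ± 0.10, adjusted p = 0.046). The background in that comparison was 4.25% of genes tested higher and 3.65% lower. With 12 genes, neither the 2 higher nor the 0 lower is read as a result about the neighbourhood.

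**Figure D4:**
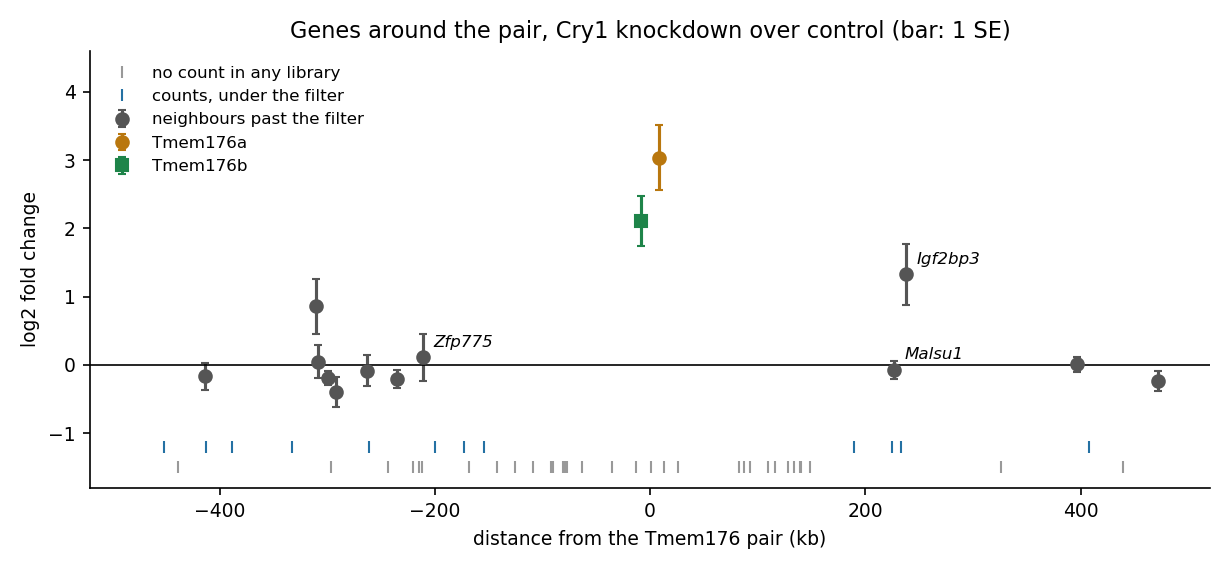
Log2 fold change of the Cry1 knockdown over the control (vertical axis, bars 1 SE) for the pair and its 12 tested neighbours, against distance from the pair in kb; ticks mark genes with no count or too few counts. Tmem176a (3.04) and Tmem176b (2.11) stand above the neighbours, which run from -0.40 to 1.33.

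Over the 9 libraries, the profiles of the paralogs were set against those of named protein-coding genes with a mean of at least 1 CPM. Profiles were compared as the root mean square difference of centred log2 CPM over 11316 genes, as a description, since the libraries share depth and composition. Tmem176a was the nearest gene to Tmem176b, and Tmem176b the second nearest to Tmem176a, at a difference of 0.578. The place depended on the measure: by Pearson correlation Tmem176a ranked 15th for Tmem176b, and Tmem176b 9th for Tmem176a. Col14a1, which encodes a collagen that binds the surface of fibrils, was nearer still to Tmem176a at 0.540 and next to Tmem176b at 0.609. The other genes nearest to Tmem176a were Grip1, a scaffold of glutamate receptors (0.648), Cxadr, a cell junction adhesion protein (0.693), and the cadherin gene Cdh10 (0.722). Among those nearest to Tmem176b were the ephrin receptor gene Epha7 (0.687) and Zfp57, a zinc finger gene that maintains imprints (0.705). In the Cry1 knockdown against the control the log2 fold change was 1.54 for Col14a1 and 1.57 for Cxadr; the profiles that chose these genes include that contrast, so the values are a description only.

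**Figure D5:**
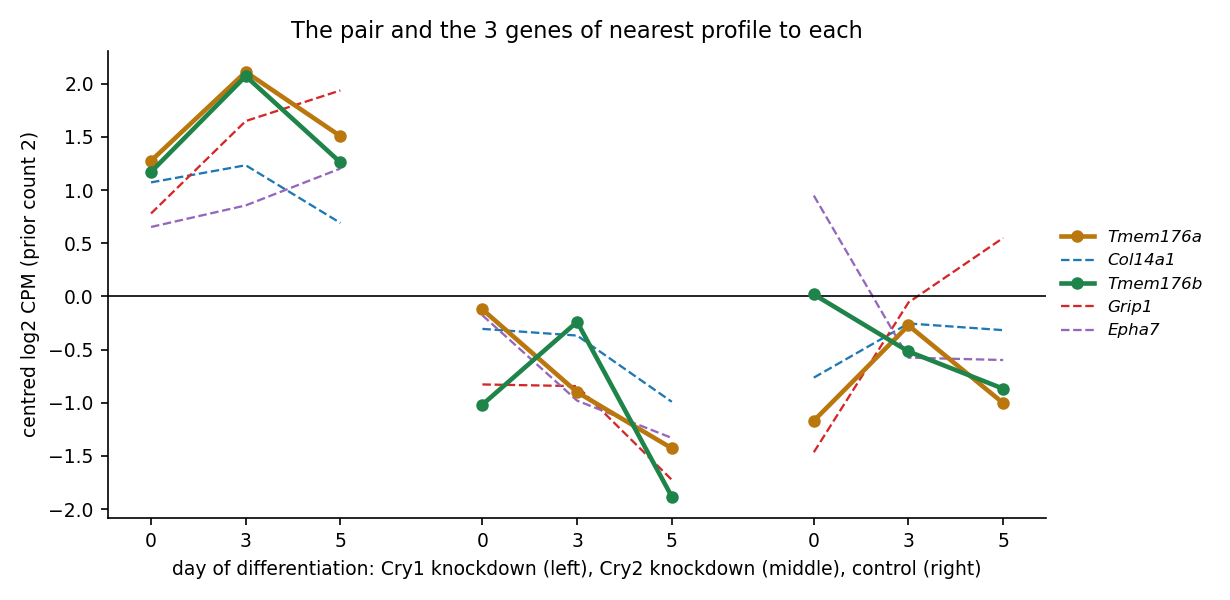
Log2 CPM (prior count 2) centred on each gene's mean over the 9 libraries (vertical axis), by genotype and day, for the pair (solid lines with points) and Col14a1, Grip1 and Epha7 (dashed), which with the paralog are the 3 nearest genes of each member. In the Cry1 knockdown both paralogs lie above their means at every day, with the maximum at day 3.

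The wider family and the immune settings in which the pair is best known were also counted. Of 18 MS4A relatives, 10 had a count and 2 passed the filter, Ms4a4d and Ms4a8a. Ms4a4d had 5.34, 20.5 and 27.8 CPM at days 0, 3 and 5 in the Cry1 knockdown and 6.16, 13.9 and 26.0 CPM in the control, a log2 fold change of 0.19 ± 0.16 (adjusted p = 0.585). Ms4a8a had 0.42 ± 0.52 (adjusted p = 0.713). Of the 2, 0 were called between genotypes, while both rose at day 3 against day 0, as did 25.6% of genes tested, with a median log2 fold change of 3.20 against 0.00 over all genes.

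Some genes on the lists of immune cell genes had no count, while others exceeded the pair in level. Of 18 macrophage and dendritic cell markers, 13 had a count and 2 passed the filter. Over all genes in the files, 49.3% had a count and 26.7% passed the filter. Adgre1, Itgax, Tyrobp, Fcer1g and Siglech were at 0 in every library, and the pan-leukocyte gene Ptprc averaged 0.0596 CPM. Csf1r averaged 0.43 CPM and Cd68 1.09 CPM, and neither passed the filter. The summed level of the 18 was 10.8 to 11.7 CPM in the Cry1 knockdown, 10.6 to 13.1 CPM in the Cry2 knockdown, and in the control 9.24 to 14.6 CPM, so these ranges overlapped. The tested markers were Cd14, a co-receptor for lipopolysaccharide, and Zbtb46, a transcription factor of dendritic cells. Cd14 had 7.11, 5.49 and 5.66 CPM at days 0, 3 and 5 in the Cry1 knockdown and 7.63, 6.55 and 7.79 CPM in the control (-0.27 ± 0.22, adjusted p = 0.561). Zbtb46 had 2.22, 2.83 and 3.36 CPM in the Cry1 knockdown, 0.808, 1.06 and 2.27 CPM in the Cry2 knockdown, and in the control 1.03, 1.85 and 3.52 CPM. Its log2 fold change was 0.48 ± 0.32 in the Cry1 knockdown against the control (adjusted p = 0.466) and -1.07 ± 0.35 in the Cry2 knockdown against the Cry1 knockdown (adjusted p = 0.0974). The part of these cell type genes in the values of the pair was not tested. Of 8 genes of MHC class II antigen presentation, Ciita, H2-Aa, H2-Ab1, H2-Eb1 and Ctss were at 0, and the 1 tested, H2-DMa, had 0.37 ± 0.30 in the Cry1 knockdown against the control (adjusted p = 0.551). The summed level of that list was 2.83 to 4.95 CPM in the Cry1 knockdown, 1.89 to 3.07 CPM in the Cry2 knockdown, and in the control 2.49 to 3.02 CPM. Of 10 genes of Th17 and type 3 innate lymphoid cells, 6 were at 0, and the 2 tested, Il1r1 and Ahr, were not called against the control in either knockdown. Il1r1, the interleukin-1 receptor gene, was lower in the Cry2 knockdown than in the Cry1 knockdown (-0.77 ± 0.20, adjusted p = 0.048). In that comparison 3.65% of genes tested were lower. The list summed to 65.7 to 110.5 CPM in the Cry1 knockdown, 53.6 to 86.7 CPM in the Cry2 knockdown, and in the control 50.2 to 87.1 CPM. Most of each sum came from Il1r1, at a mean of 48.0 CPM, and Ahr, at 25.8 CPM.

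Of 10 ROR and REV-ERB receptors and their clock targets, 9 were tested and 2 fell in the Cry1 knockdown against the control (background 1.69%), with a median log2 fold change of -0.02 against 0.01 over all genes. Apart from the targeted Cry1, the gene that fell was Nr1d1, which encodes the repressor REV-ERBα, at 43.1, 54.1 and 70.2 CPM in the Cry1 knockdown and 57.1, 94.2 and 94.4 CPM in the control (-0.55 ± 0.12, adjusted p = 0.0497). Rora, which encodes the activator RORα, had 5.48, 6.82 and 17.5 CPM in the Cry1 knockdown and 2.49, 4.37 and 8.71 CPM in the control at days 0, 3 and 5. It was higher at each day, but the difference did not pass (0.92 ± 0.26, adjusted p = 0.105). Cells of the Cry2 knockdown had 2.91, 1.69 and 9.27 CPM of Rora, which was lower there than in the Cry1 knockdown (-1.14 ± 0.27, adjusted p = 0.0375). Of all genes tested, 3.65% were lower in that comparison.

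Muscle genes were present throughout, as the label of the cells requires, and differed between the groups in part. Of 11 myoblast and myotube markers all 11 were tested, and Pax7, a myogenic progenitor factor (0.92 ± 0.20, adjusted p = 0.0487), and Ckm, muscle creatine kinase (0.84 ± 0.18, adjusted p = 0.0459), rose in the Cry1 knockdown against the control (background 0.894%). The median of the 11 was 0.64, against 0.01 over all genes, and their summed level was 3254 to 21190 CPM in the Cry1 knockdown, 2599 to 22300 CPM in the Cry2 knockdown, and in the control 2521 to 20230 CPM. These sums hide a difference at day 0. There Myog had 179.6 CPM in the Cry1 knockdown and 58.7 CPM in the control, Acta1 363.5 and 116.6, and Myh3 184.3 and 70.3. Des (1633 and 1638 CPM) and Myf5 (31.4 and 36.7 CPM) were not higher in the Cry1 knockdown at that day. Of 28 genes of myoblast fusion 23 were tested and 1 rose in the Cry1 knockdown against the control (background 0.894%), the myogenic factor gene Mef2c (1.23 ± 0.19, adjusted p = 0.019), and the median was 0.02. The part of this difference in muscle state in the values of the pair was not tested. Of 10 fibroblast, endothelial and adipocyte markers 3 were tested and 0 called between the knockdowns and the control, and their summed level was 18.5 to 34.3 CPM in the Cry1 knockdown, 17.2 to 25.4 CPM in the Cry2 knockdown, and in the control 22.3 to 35.9 CPM.

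The targeted genes went with their labels. Cry1 had 8.30, 6.65 and 8.14 CPM at days 0, 3 and 5 in the Cry1 knockdown and 20.5, 15.8 and 17.4 CPM in the control (-1.22 ± 0.22, adjusted p = 0.0277), and Cry2 had 7.27, 8.26 and 16.6 CPM in its own knockdown, against 19.2, 39.6 and 48.9 CPM in the control (-1.74 ± 0.17, adjusted p = 0.0214). Of the other genes in the title, Bclaf1 had -0.09 (adjusted p = 0.644) and Ccnd1 -0.60 (adjusted p = 0.373) in the Cry2 knockdown against the control, and neither passed. Control cells held 241.4, 74.4 and 30.4 CPM of Ccnd1 at days 0, 3 and 5. With Cry2 knocked down the levels were 233.6, 24.1 and 23.1 CPM, furthest from the control at day 3. Differences within a day were not tested for this gene. Against the Cry1 knockdown, the Cry2 knockdown was lower in Bclaf1 (-0.29, edgeR adjusted p = 0.0408), while Ccnd1 did not pass (-0.50, adjusted p = 0.238).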

How the data were processed

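PolyA RNA of 9 C2C12 libraries was measured. The values are raw counts per gene as deposited by the authors; the submitters' processing notes name CASAVA 1.8, HISAT2 2.0.2, Subread, featureCounts 1.4.6 and the mm10 build. The strand setting and annotation release are not given in the sources used here. Library totals ran from 4731020 to 6412279 counts, and intervals and floors cover counting error only. Of the identifiers, 47223 matched a GENCODE vM21 symbol.

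Genes were filtered by filterByExpr on genotype, scaled by TMM and tested with the quasi-likelihood F test of edgeR 4.0.16 (R 4.3.3, limma 3.58.1). The fit was additive in genotype and day over all 9 libraries, with 12752 genes and 4 residual degrees of freedom. A genotype p-value is thus measured against how far the days disagree. For differentiation responses the fit held genotype, stage and their interaction, with a shared day 5 term. Standard errors are the absolute log2 fold change over the square root of F, and the threshold was a Benjamini-Hochberg adjusted p of 0.05. Within-day ratios of scaled counts carry exact conditional binomial intervals. CPM values are TMM-scaled.

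The genes of similar profile were the 5 named protein-coding genes nearest to each member, at a mean of at least 1 CPM; some genes that these rules select are withheld and not reported here. Neighbours were genes within 500 kb. Tested ones were described in the genotype comparisons, and genes called there or lying within 100 kb were named, gene models aside. Some neighbours were called between days, and these changes are not described here. Zfp775, Malsu1 and Igf2bp3 were named after their values were seen. Of each gene list up to 4 tested members were named, those called first. Further muscle markers were named for their day 0 values after these were seen. The genes and lists were chosen with earlier results of these data known. Promoter windows came from RefSeq (GRCm38.p6), and protein sequences were not used here. Alternatives were RLE size factors, no filter, a filter of 1 CPM in 3 libraries, DESeq2 1.42.0, dropping the day or the genotype term, restriction to the 6 libraries compared, leaving out days, genotypes or libraries in turn, a prior count of 5 for ratios and profiles, Pearson correlation for profiles, and a filter on the design matrix, the last chosen after seeing the data. Python 3.11.15 with numpy 2.4.6, pandas 2.3.3, scipy 1.17.1, Biopython 1.88 and matplotlib 3.10.9 did the rest.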

Additional observations from a re-analysis of the deposited data

How the results depend on the processing

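Across the alternatives run, the log2 fold change in the Cry1 knockdown against the control stayed between 2.80 and 3.38 for Tmem176a and between 1.69 and 2.66 for Tmem176b. The call of both was kept with RLE size factors, no filter, a filter of 1 CPM, a filter on the design matrix, DESeq2 and only the 6 libraries compared. It was lost without the day term (3.03 for Tmem176a and 2.15 for Tmem176b, where 0 genes were called), without day 0 (2.94 and 2.66), without day 3 (3.28 and 1.73) and without day 5 (2.95 and 1.99). With 1 library left out in turn, the values ran from 2.80 to 3.38 for Tmem176a, called in 4 of 9 fits, and from 1.69 to 2.63 for Tmem176b, called in 5 of 9. In the Cry2 knockdown against the Cry1 knockdown the call was lost without the day term (-2.91 for Tmem176a and -2.78 for Tmem176b), without day 3 (-2.44 and -3.05) and without day 5 (-2.49 and -2.50). With 1 library left out, Tmem176a ran from -3.91 to -2.41 and was called in 5 of 9 fits. DESeq2 gave Tmem176a no adjusted p in that comparison. The fits without a day had fewer libraries, while the fit without the day term had all 9. The cause of these losses was not tested.

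Uncalled values changed sign in some fits. In the Cry2 knockdown against the control Tmem176a was -0.95 without day 0 and ran from -0.87 to 0.64 with 1 library left out. Day 3 against day 0 ran from -0.046 to 1.02 for Tmem176a and from -0.035 to 0.89 for Tmem176b. Day 5 against day 0 for Tmem176a was 0.26 without the Cry2 knockdown genotype and ran from -0.83 to 0.24. The response of Tmem176b in the Cry2 knockdown ran from -0.061 to 1.46. The number of genes called moved from 330 to between 0 (no day term) and 919 (no filter) in the Cry1 knockdown against the control, from 3 to between 0 and 316 in the Cry2 knockdown against the control, and from 1007 to between 0 and 1528 between the knockdowns. It moved from 3638 to as few as 1521 at day 5 against day 3, and from 0 to up to 126 and 5 to up to 160 in the responses of the Cry1 and Cry2 knockdowns. A prior count of 5 lowered the log2 ratio of the Cry1 knockdown to the control within days to between 1.83 and 1.99 for Tmem176a and between 1.05 and 2.31 for Tmem176b. By Pearson correlation, 1 of the 5 genes nearest to Tmem176a and 0 of the 5 nearest to Tmem176b were shared with the ranking used. Depth limits the pair, since the Cry2 knockdown and control libraries hold 1 to 16 counts of either gene.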
